A study of Rattus norvegicus with 19 samples.

Results

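Cells labelled as stem cells were compared with the stages of the Leydig lineage that follow them, on 19 Affymetrix arrays of rat RNA (Sprague-Dawley strain). The stem side held 8 arrays, 5 of stem Leydig cells and 3 of bone stem cells. The later side held 11 arrays, 3 of progenitor, 4 of immature and 4 of adult Leydig cells. All 19 arrays of the series took part. The genes described were chosen by position: a gene lay on a shared side when the mean log2(signal + 16) of the stem Leydig group and that of the bone stem group were both above, or both below, all 3 later group means. Of 14217 genes, 7659 lay on a shared side, 3205 with both stem groups above and 4454 with both below. No treatment or genotype is named for any group, and neither age, isolation, passage nor culture is given in the sources used here, so each of these cannot be told apart from the stage or tissue.

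Leydig cells lie between the seminiferous tubules of the testis and make testosterone from cholesterol when luteinizing hormone binds its receptor. They descend from spindle-shaped mesenchymal cells that do not yet make androgen. Progenitor cells begin to express the steroid enzymes, immature cells hold many lipid droplets and reduce much of the androgen they make, and adult cells secrete testosterone. Stromal stem cells from bone are mesenchymal cells of another tissue, known for forming bone, cartilage and fat. Mesenchymal cells of either kind make matrix and contractile filaments, and TGF-beta, SRF and the YAP and TEAD factors are known drivers of such genes.

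Signal levels differed between the sides. The median signal of an array was 18.9 to 24.6 on stem arrays and 21.6 to 36.6 on later arrays, and signals under 16 made up 41.9% to 47.3% of a stem array, against 29.1% to 43.9% of a later array. The 3′ to 5′ signal ratio of the beta-actin control was 1.03 to 2.95 on stem arrays and 1.28 to 6.35 on later arrays, the highest being progenitor replicate 3. Immature replicate 4 had a mean r across probe sets of 0.972 with progenitor arrays and of 0.959 with its own group. Without both of those arrays, 6531 probe sets were called higher and 9944 lower in the stem groups, against 6433 and 9983 with all arrays. Bone stem arrays carried leukocyte transcripts that stem Leydig arrays had at low levels: the summed signal of 29 leukocyte markers was 892 to 1416 on stem Leydig arrays, 17514 to 22927 on bone stem arrays and 1514 to 12776 on later arrays. For that reason counts are also given for stem Leydig arrays alone against the later arrays, a comparison added after the data were seen.

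The difference between the sides was tested as the mean of the 2 stem groups minus the mean of the 3 later groups, in 1 limma model of all arrays, and a gene was called at a Benjamini-Hochberg adjusted p under 0.05. Of all genes, 3974 (28.0%) were called higher and 4886 (34.4%) lower in the stem groups, with a median difference of -0.07 over all genes. Called genes that also lay on a shared side numbered 2952 higher (20.8%) and 3786 lower (26.6%). All 8 stem arrays lay above all 11 later arrays for 1315 genes (9.25%), and below them for 1446 (10.2%). A difference of at least 4 on the log2 scale was reached by 45 of the higher and 65 of the lower shared genes. Since the rule chose genes by these group means, their direction describes them and supports nothing. Scaling set the balance of directions. Counted over probe sets instead of genes, higher calls made up 39.2% of all calls with the deposited signals. They made up 50.6% with quantile-normalized signals and 65.4% with each array centred on its median. The median probe set then differed by 0.00 and 0.12, against -0.09 with the deposited signals, and differences are read relative to that shift. In these bulk samples fewer cells of a type and less RNA per cell cannot be told apart. Counts below are as deposited, and list counts with both stem groups are to be read against 28.0% higher and 34.4% lower. List counts include called genes that lay on no shared side. List counts with stem Leydig arrays alone are to be read against fewer calls. That comparison called 6003 of 31042 probe sets higher and 8377 lower, against 6433 and 9983 with both stem groups. Its share over genes was not counted, so no base in genes is given for those list counts.

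The 8 genes with the largest positive difference were dim on most later arrays. These 8, and the 8 with the largest negative difference, were taken from called genes on a shared side without overlap of arrays. The lack of overlap was thus a condition of choice and is no finding. Grem1, a secreted antagonist of bone morphogenetic proteins, had signals of 1465, 1129, 1211, 1482 and 1506 on stem Leydig arrays and 3291, 4094 and 3933 on bone stem arrays. On the 11 later arrays Grem1 had 0.58 at the lowest, 4.23 at the median and 13.4 at the highest. Every stem array was far above every later array for this gene, bone stem arrays being the brightest, and its difference was 6.74 ± 0.11 (SE, log2 scale, adjusted p = 3.28e-20). Tnc, the matrix glycoprotein tenascin-C, had 1380.1, 1442, 1304, 1229.6 and 1766 on stem Leydig arrays and 1494, 1616 and 1675 on bone stem arrays. Later arrays gave Tnc 1.25 at the lowest, 4.12 at the median and 10.7 at the highest. Again no array of one side reached the other side. The stem Leydig minus bone stem difference was -0.17 ± 0.14 and not called (adjusted p = 0.503), while the difference from the later groups was 6.23 ± 0.09 (adjusted p = 8.52e-21).

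The other 6 of these genes have varied roles. Actg2, a smooth muscle actin, differed by 6.36 ± 0.18 and Tagln, the actin-binding protein transgelin, by 5.87 ± 0.33. Tagln was not silent in every later array: adult replicate 1 had a signal of 299.9 and the 10 others 1.4 to 97.0, still below the lowest stem array at 1601. Itga11, the alpha subunit of a collagen-binding integrin, differed by 5.81 ± 0.15 and was higher in bone stem than in stem Leydig arrays, with means of 665 ± 238 in stem Leydig and 2531 ± 647 in bone stem arrays (SD, n = 5 and n = 3). The remaining members were Aqp1, a water channel (6.05), Bcat1, the cytosolic aminotransferase of branched-chain amino acids (5.83), and Gpnmb, a transmembrane glycoprotein that macrophages also make (5.56). Gpnmb had 1436, 967, 1044, 805 and 1199 on stem Leydig and 3743, 4452 and 4211 on bone stem arrays, and the part of leukocytes in this difference was not tested. The order of these genes depends on the added 16: with 1 added instead, Col8a1 (7.29), Il1rl1 (7.26) and Ltbp2 (6.92) had larger differences than Tagln (6.79) and Gpnmb (6.16).

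**Figure D1:**
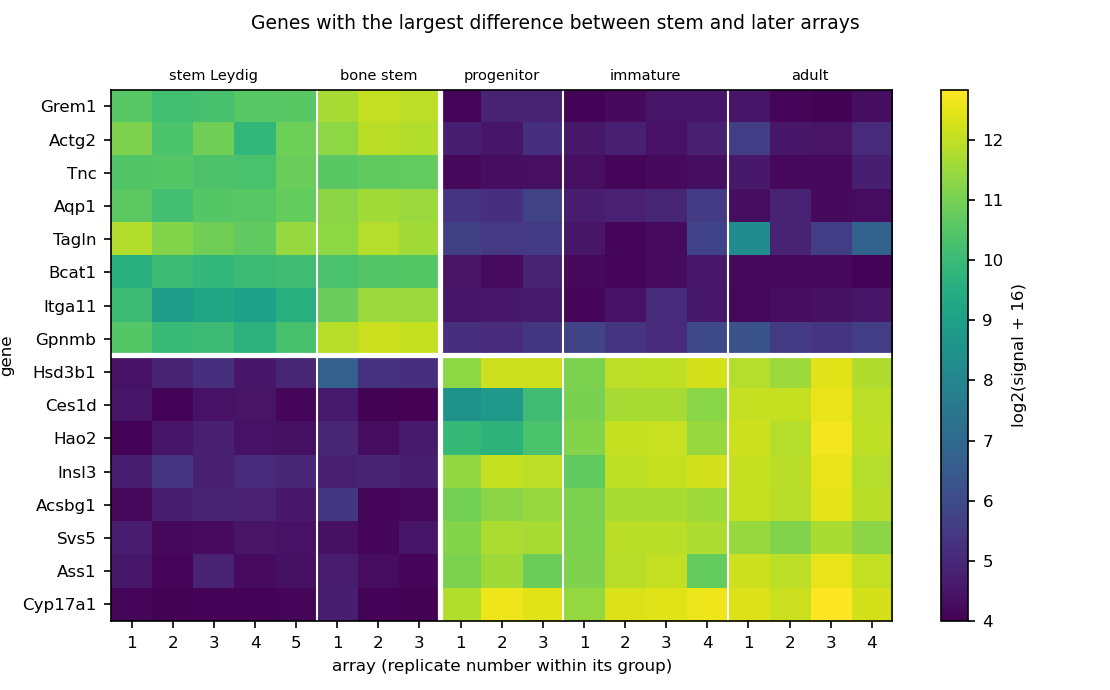
Heat map of log2(signal + 16) for the 8 genes with the largest positive and the 8 with the largest negative difference (rows), on each of the 19 arrays (columns, replicate number under each), with stem Leydig and bone stem arrays left of the thick white line. The genes were chosen so that every stem array lies above every later array for the upper 8 genes and below for the lower 8. Tagln in adult replicate 1 (signal 299.9) is the brightest later value among the upper rows.

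The 8 genes with the largest negative difference included the hormone and steroid enzyme genes that define Leydig cells. Cyp17a1, the enzyme that turns C21 steroids into androgens, had signals of 1.6, 0.5, 0.8, 0.8 and 1.8 on stem Leydig arrays and 10.7, 1 and 0.5 on bone stem arrays. The later arrays gave Cyp17a1 2758 at the lowest, 5299 at the median and 7277 at the highest. With stem values this dim, the difference of -8.10 ± 0.15 (adjusted p = 1.64e-19) is a difference from the floor that the added 16 sets. Insl3, a peptide hormone of Leydig cells, had 11, 23.9, 11.7, 17.1 and 15 on stem Leydig arrays and 11.3, 13.1 and 10.5 on bone stem arrays. Its later values were 1602 at the lowest, 4075 at the median and 5884 at the highest, without overlap as the choice required (-6.99 ± 0.17, adjusted p = 7.62e-18).

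Not all of these genes belong to steroid synthesis. Ass1, which makes argininosuccinate from citrulline, differed by -7.18, Acsbg1, a long-chain acyl-CoA synthetase, by -7.00, Hao2, a peroxisomal hydroxy acid oxidase, by -6.77, and Ces1d, a carboxylesterase, by -6.63. Ces1d and Hao2 also varied among the later groups, averaging 4614 ± 926 and 4732 ± 1297 in adult arrays, against 628 ± 417 and 1023 ± 235 in progenitor arrays (SD, n = 4 and n = 3). Svs5, a secretory protein of the seminal vesicle, had 1.83 to 9.42 on stem arrays and 2182 to 3882 on later arrays (-7.16). The epithelial list did not move one way. Krt7, a keratin, was higher in the stem groups, with means of 411, 139, 8.07, 3.87 and 3.69 in stem Leydig, bone stem, progenitor, immature and adult arrays (3.55 ± 0.19, adjusted p = 1.66e-12). The adhesion markers were near the floor in every group: Epcam averaged 7.13, 4.8, 13.9, 14.7 and 6.95 and Cdh1 0.68, 0.68, 15.7, 5.37 and 3.91 in the same order of groups.

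Contractile and actin-binding genes were the group with the highest median. Of 33 measured members, 31 were called higher and 1 lower in the stem groups, with a median difference of 2.03. All stem arrays lay above all later arrays for 23 of the members. Acta2, smooth muscle alpha-actin, had signals of 2325, 1237, 1436, 985 and 1805 on stem Leydig arrays and 1139.9, 2023 and 1942 on bone stem arrays. Later arrays gave Acta2 47.1 at the lowest, 67.9 at the median and 232 at the highest, adult replicate 1 being the highest. Cnn1, the smooth muscle calponin, differed by 4.96, the tropomyosin Tpm2 by 3.69, alpha-actinin 1 (Actn1) by 3.43 and skeletal alpha-actin (Acta1) by 3.57. Csrp2, a LIM-domain protein of smooth muscle, was the exception, with 279 ± 125 in stem Leydig, 168 ± 71.7 in bone stem and 581 ± 48.9, 643 ± 101 and 804 ± 61.3 in progenitor, immature and adult arrays (-1.66). Vim, the intermediate filament vimentin, was not called, with group means of 3069, 4377, 2983, 2873 and 3799 in the same order. Des, desmin, was called but did not lie on a shared side: it averaged 1094 ± 141 in stem Leydig arrays and 24.8 ± 3.12 in bone stem arrays, against 52.5 ± 6.92, 34.2 ± 6.14 and 90.7 ± 69.3.

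Promoters of these genes were searched because so many of the members moved the same way. The window ran from 250 bases before to 50 after the start site in RefSeq (build GRCr8), and 27 of the 33 members had an entry there. The CArG box, the 10-base element that SRF binds, was counted only as CC, then 6 bases that are each A or T, then GG. This strict form was found in 4 of 27 (14.8%), against 1.6% of all 27457 promoters. A TEAD motif (GGAATG, both strands) was found in 10 of 27 (37.0%), against 13.9% of all promoters, but in 11.1% against 7.4% with only the printed strand searched. Of the 22 steroid synthesis genes 13 had an entry, and Cyp17a1, Star and the contractile gene Tagln were not searched. Among those 13 promoters, 0 held a CArG box and 4 a TEAD motif (30.8%), and 1 of 13 (7.7%) held AAGGTCA, the element that the steroidogenic regulator Nr5a1 binds as a monomer, against 4.4% of all promoters. These list-wise searches were added after the data were seen, and over the named genes as planned the shares were lower: 0 of 35 promoters of higher genes held a CArG box and 6 (17.1%) a TEAD motif, against 1 (2.2%) and 2 (4.4%) of 45 promoters of lower genes. TGANTCA, bound by AP-1, stood in 4 of those 35 (11.4%) and 6 of those 45 (13.3%), against 7.3% of all promoters, and AAGGTCA in 0 of 35 and 1 of 45. Over the promoters of all called genes on a shared side, a CArG box was found in 1.6% of higher and 1.5% of lower genes and a TEAD motif in 12.4% and 11.2%, against 1.4% and 11.7% of all measured genes. TGANTCA was found in 5.4% of these higher and 4.7% of these lower genes, and AAGGTCA in 2.3% and 3.5%. Over all measured genes those shares were 5.4% and 3.1%. A match describes letters in this window and is no test of binding, and neither is the absence of a match. In the Acta2 promoter, CCCTATATGG and CCTTGTTTGG each differ from the strict CArG form by 1 base and were not counted. The CArG shares therefore leave out such near matches. Shown are the 4 contractile promoters with a CArG box, the Acta2 promoter with its TEAD motif, and the promoter of Akr1b7, an aldo-keto reductase of steroid-making cells, with its Nr5a1 element. Each runs 5′ to 3′ on the gene's strand, with the CArG box, TEAD motif or Nr5a1 element named here in capitals.

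Acta1, chr19:68784145-68784444, minus strand: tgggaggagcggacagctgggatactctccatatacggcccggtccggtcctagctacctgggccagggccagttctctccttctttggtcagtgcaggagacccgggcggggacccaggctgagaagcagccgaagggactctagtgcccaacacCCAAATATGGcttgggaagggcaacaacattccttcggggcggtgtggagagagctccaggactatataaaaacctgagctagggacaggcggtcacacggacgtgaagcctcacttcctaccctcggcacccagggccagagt

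Cnn2, chr7:10370263-10370562, minus strand: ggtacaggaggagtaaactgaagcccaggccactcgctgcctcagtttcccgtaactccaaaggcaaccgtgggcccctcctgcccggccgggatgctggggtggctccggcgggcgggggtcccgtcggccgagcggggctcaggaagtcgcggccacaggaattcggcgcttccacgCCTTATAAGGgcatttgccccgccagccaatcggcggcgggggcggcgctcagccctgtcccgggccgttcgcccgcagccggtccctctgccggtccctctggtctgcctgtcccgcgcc

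Fhl1, chrX:139638246-139638545, plus strand: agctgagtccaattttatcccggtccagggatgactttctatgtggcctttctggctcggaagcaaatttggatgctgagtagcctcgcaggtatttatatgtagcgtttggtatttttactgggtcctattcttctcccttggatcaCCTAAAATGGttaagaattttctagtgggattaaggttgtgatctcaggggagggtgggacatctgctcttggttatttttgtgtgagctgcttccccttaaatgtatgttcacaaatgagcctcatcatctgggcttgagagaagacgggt

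Fhl2, chr9:52954491-52954790, minus strand: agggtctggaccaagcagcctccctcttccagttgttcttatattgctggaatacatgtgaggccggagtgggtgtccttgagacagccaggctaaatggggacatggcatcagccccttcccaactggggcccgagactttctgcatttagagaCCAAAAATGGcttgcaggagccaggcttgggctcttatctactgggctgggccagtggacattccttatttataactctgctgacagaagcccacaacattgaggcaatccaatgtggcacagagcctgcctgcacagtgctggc

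Acta2, chr1:241172454-241172753, minus strand: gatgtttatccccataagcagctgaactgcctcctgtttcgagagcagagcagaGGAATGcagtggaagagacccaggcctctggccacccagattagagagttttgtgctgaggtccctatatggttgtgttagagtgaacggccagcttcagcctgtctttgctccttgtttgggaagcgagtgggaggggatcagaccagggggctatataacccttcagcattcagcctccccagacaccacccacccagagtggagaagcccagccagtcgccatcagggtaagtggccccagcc

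Akr1b7, chr4:64043720-64044019, plus strand: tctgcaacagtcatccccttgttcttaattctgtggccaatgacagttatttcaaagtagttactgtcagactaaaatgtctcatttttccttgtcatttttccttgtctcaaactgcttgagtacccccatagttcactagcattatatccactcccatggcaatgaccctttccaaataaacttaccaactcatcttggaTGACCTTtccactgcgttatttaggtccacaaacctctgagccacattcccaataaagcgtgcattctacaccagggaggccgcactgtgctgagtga

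The CArG boxes begin 94 bases before the start site in Acta1, 71 in Cnn2, 102 in Fhl1 and 95 in Fhl2. Acta1, Cnn2 and Fhl2 lay on a shared side with no overlap of arrays, with differences of 3.57, 2.03 and 2.93. Fhl1, a LIM-domain protein, was called higher (1.11) but its bone stem mean of 521 ± 13.9 lay below the immature mean of 545 ± 124. Akr1b7, whose Nr5a1 element begins 48 bases before the start and reads TGACCTT on this strand, fell by 2.15 in the stem groups, with means of 1.9, 5, 143, 57.3 and 36.1 in stem Leydig, bone stem, progenitor, immature and adult arrays.

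Collagens and the enzymes that modify and cross-link them were mostly higher in both stem groups. Of 37 measured, 31 were called higher and 1 lower, with a median of 1.47. The collagen chain genes Col8a1 (5.08 ± 0.15), Col11a1 (4.81 ± 0.26) and Col12a1 (4.31) were close to the floor in later arrays, whereas the fibrillar collagen genes Col1a1 and Col1a2 were bright in all groups and dimmest in adult arrays. Col1a1 averaged 2651 ± 1068 in stem Leydig and 2389 ± 288 in bone stem arrays, and 1334 ± 559, 1368 ± 257 and 233 ± 142 in progenitor, immature and adult arrays. Cross-linking and hydroxylating enzymes were called higher as well, among them Lox (2.92), Loxl2 (3.13), P4ha3 (4.79) and Plod2 (2.37). Col4a1 and Col4a2, chains of basement membrane collagen, averaged 2438 ± 626 and 1604 ± 317 in stem Leydig arrays but 602 ± 234 and 364 ± 76 in bone stem arrays, and neither lay on a shared side.

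Other matrix genes were divided. Of 43 measured, 28 were called higher and 8 lower, with a median of 0.81. Beside Tnc, the higher genes included Fbln2, a fibulin (4.96 ± 0.18), Ccn2, a matricellular protein induced by TGF-beta (4.94), Vcan, versican (4.59), and Fn1, fibronectin (3.75). Postn, periostin, showed a graded fall along the later groups, with means of 2504, 3883, 1097, 459.8 and 12.1 in stem Leydig, bone stem, progenitor, immature and adult arrays. Sparcl1, a relative of osteonectin, was the lowest of the 8 lower genes (-4.74 ± 0.18), with 12.8, 15.1, 37.7, 19.2 and 14.3 on stem Leydig and 14.7, 1.7 and 0.9 on bone stem arrays. Later arrays gave Sparcl1 363 at the lowest, 739.7 at the median and 1080.4 at the highest. Efemp1, a fibulin-like protein, also fell (-2.87), and so did the small proteoglycan genes Dcn (-1.86) and Ogn (-1.57).

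Integrins and focal adhesion genes were called higher for 27 of 30 members and lower for 2 (median 1.15). Vcl, vinculin, had signals of 1279 at the lowest, 1861 at the median and 2416 at the highest on the 8 stem arrays. On the later arrays Vcl had 67.8 at the lowest, 141 at the median and 240.1 at the highest (3.50 ± 0.16, adjusted p = 1.25e-13). Itgb5 and Itgb3, both integrin beta subunits, rose too, by 3.00 and 2.13, while Itga9, an alpha subunit (-2.14), and Cavin2, a caveolar protein (-1.76), fell. Proteases and their inhibitors were called higher for 25 of 32 members and lower for 3 (median 1.22), led by Serpine2, an inhibitor of serine proteases (5.23 ± 0.10), and the gelatinase gene Mmp2 (3.49 ± 0.14, called by 1 of its 2 probe sets). Timp3, a matrix-bound inhibitor of metalloproteases, moved the other way, with means of 114 ± 43 and 50.5 ± 43.6 in stem Leydig and bone stem arrays, against 1285 ± 114, 1094 ± 253 and 1099 ± 219 in progenitor, immature and adult arrays (-3.76 ± 0.19). Mmp12, Ctss and Mmp13, which macrophages or osteoblasts are known to make, averaged 29.6 ± 8.79, 46.7 ± 14.7 and 42.2 ± 32.8 in stem Leydig arrays, against 715 ± 387, 1618 ± 296 and 357 ± 311 in bone stem arrays.

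Genes of TGF-beta and YAP signalling were called higher for 29 of 34 members and lower for 3, with a median of 1.26. Among the ligands, Inhba, an activin subunit, averaged 1420.5 ± 136 in stem Leydig and 588 ± 147 in bone stem arrays, against 60.5 ± 22.8, 43.8 ± 49.3 and 8.53 ± 1.11 in progenitor, immature and adult arrays (4.37 ± 0.21, adjusted p = 4.72e-13). Tgfb3 (4.14) and Tgfb2 (2.94) rose, and so did Ltbp2 (5.53 ± 0.16) and Ltbp1 (3.31), which hold latent ligand in the matrix. The receptor gene Tgfbr1 (1.31) and the inhibitory Smad7 (1.45) were higher, and the co-receptor Tgfbr3 lower (-1.04). All 4 TEAD factor genes were called higher, the largest difference being that of Tead1 (2.02), and Tead2 did not lie on a shared side.

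Secreted signals and their receptors gave 25 of 43 called higher and 12 lower (median 0.42). Il1rl1, the interleukin-33 receptor, had the largest positive difference of this list after Grem1 and was brighter in stem Leydig arrays, with 2046, 965, 1239.5, 1183 and 1580.2, than in bone stem arrays, with 549, 593 and 575. The later arrays had 1.29 at the lowest, 4.99 at the median and 9.21 at the highest (5.40 ± 0.12, adjusted p = 3.65e-18). Chemokine Ccl2 (3.43), the cytokine Il6 (2.65) and the growth factor genes Vegfc (3.32), Pdgfa (3.08) and Fgf7 (2.55) rose. Igf1, insulin-like growth factor 1, and the genes of 3 of its binding proteins fell, and Igf1 averaged 149 ± 60.5 and 586 ± 21.3 in stem Leydig and bone stem arrays, against 1754 ± 292, 2396 ± 642 and 2652 ± 328 in progenitor, immature and adult arrays. Igfbp2, a binding protein of these factors, was the lowest of this group (-5.90 ± 0.21), followed by Angptl4 (-3.67), Igfbp5 (-3.65) and Igfbp3 (-3.43). Angptl4, an inhibitor of lipoprotein lipase, was uneven between the stem groups, with 22.8 ± 2.74 in stem Leydig and 319.9 ± 118 in bone stem arrays, the lowest later array being at 748.

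Wnt genes gave 11 of 32 higher and 10 lower, with a median of 0.02, but 15 higher and 9 lower with quantile-normalized signals and 16 and 8 with median centring. Wnt5a (2.76 ± 0.17) and Dkk3, a Dickkopf relative (4.07 ± 0.13), were the higher extremes on a shared side, while Wnt6 (-3.86 ± 0.13) and Wnt5b (-3.18 ± 0.15) were the lower ones. Dkk3 was called higher by 1 of its 4 probe sets, and the average over them differed by 1.06. Wnt6 had 4.78 to 17.8 on stem arrays and 215 to 641 on later arrays. Hox and other positional factor genes were called higher for 16 of 29 and lower for 5 (median 0.34), and most were dim. Pbx3, a Hox cofactor, rose in both stem groups (2.41 ± 0.13), whereas Hoxd8 (-1.27 ± 0.07) and Tbx3 (-1.68 ± 0.14) fell.

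Markers used to define mesenchymal stem cells did not all fall on the stem side. Thy1 had signals of 2312, 1943, 1772, 1794 and 2379 on stem Leydig arrays and 2890.0, 3469 and 3161 on bone stem arrays. Later arrays gave Thy1 21.1 at the lowest, 47.2 at the median and 135 at the highest, with no overlap (5.18 ± 0.16, adjusted p = 4.63e-16). Cd44, the hyaluronan receptor, rose by 2.42 ± 0.19 and Pdgfrb, the beta receptor of platelet-derived growth factor, by 3.21 ± 0.16. Nt5e, the surface enzyme CD73, went the other way, with 86.7, 71.8, 121, 80.4 and 77.5 on stem Leydig and 312, 201 and 202 on bone stem arrays. Later arrays had 269 at the lowest, 495 at the median and 1049 at the highest, so bone stem replicate 1 lay above progenitor replicate 3 (-1.81 ± 0.11, adjusted p = 1.3e-11). Eng, endoglin, did not lie on a shared side: it averaged 368 ± 30.8 in stem Leydig and 109 ± 24.5 in bone stem arrays, and 179.9 ± 58.5, 76.9 ± 33.7 and 142 ± 55.3 in progenitor, immature and adult arrays.

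Pdgfra and Lifr, surface proteins linked to stem Leydig cells in the rat testis, were also on the later side, whereas Thy1 was on the stem side. Pdgfra, the alpha receptor, averaged 778 ± 195 in stem Leydig and 412 ± 5.96 in bone stem arrays, against 1953 ± 261, 2086 ± 509 and 1865 ± 191 in progenitor, immature and adult arrays (-1.77 ± 0.13, adjusted p = 2.78e-10). Lifr, the receptor of leukemia inhibitory factor, had 5.85 to 15.7 on stem arrays and 47.7 to 117 on later arrays (-1.77 ± 0.10). Vcam1, an adhesion molecule, was the lowest of the 36 mesenchymal markers (-5.18 ± 0.13). Nes, nestin, was bright in stem Leydig arrays alone, with 147, 272, 248, 259.8 and 284, against 29.9, 25.9 and 21.8 in bone stem arrays, and did not lie on a shared side. In all, 22 of the 36 were called higher and 12 lower (median 0.80), and the receptor Kit (-2.50) and the factor Tcf21 (-2.51) were among the lower ones. Gli1, a hedgehog target, was also lower (-2.82), with means of 4.11, 1.06, 301, 235 and 15.2 in stem Leydig, bone stem, progenitor, immature and adult arrays, and stem Leydig minus adult was not called (-0.54, adjusted p = 0.0798). The leukocyte gene Ptprc, whose absence is part of the usual definition, averaged 11.3 ± 3.94 in stem Leydig arrays and 291 ± 109.7 in bone stem arrays. The arrays labelled bone stem cells thus went against that criterion, and Cd34 was not measured under that name.

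**Figure D2:**
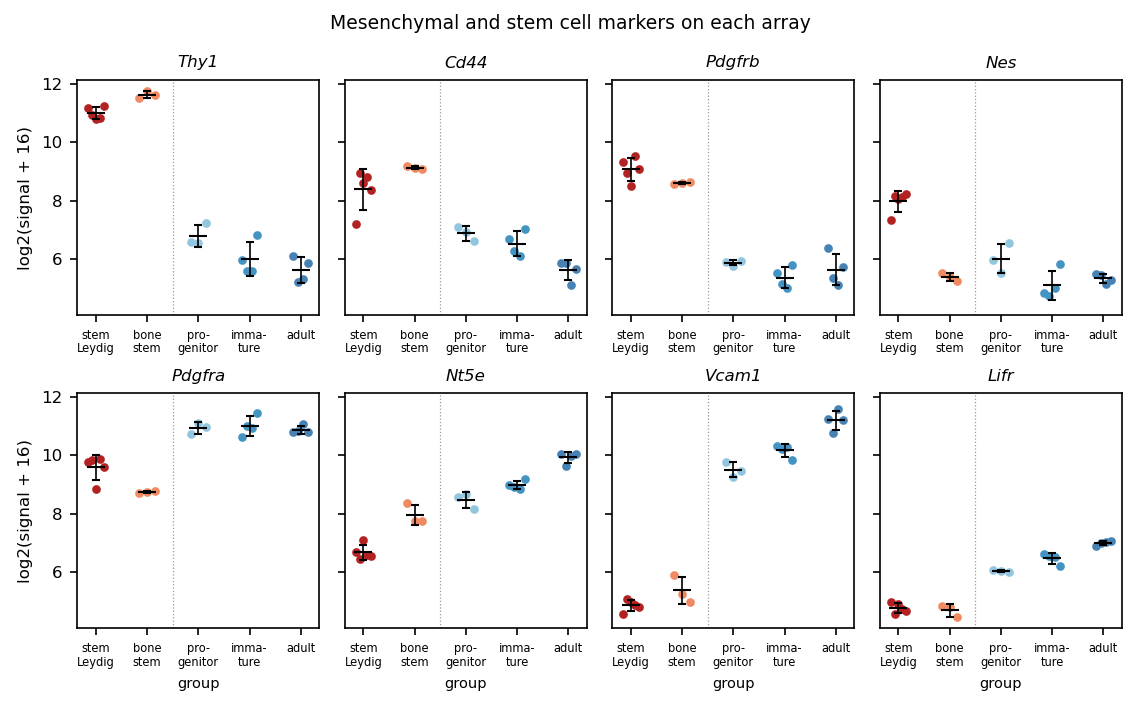
Signals of 8 mesenchymal and stem cell markers as log2(signal + 16), with 1 point per array, the group mean as a bar and the SD as whiskers (n = 5, 3, 3, 4 and 4). Thy1, Cd44 and Pdgfrb are higher on the stem side, Pdgfra, Nt5e, Vcam1 and Lifr lower, and Nes is high in the stem Leydig group only.

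Cell cycle genes had a median close to that of all genes. Of 38 measured, 14 were called higher and 6 lower, with a median of 0.15, and 5 of the higher and 4 of the lower lay on a shared side. Of the proliferation markers, Mki67 was called but lay on no shared side and Top2a was not called. Mki67 averaged 160.2, 357, 408, 265 and 32.2 and Top2a 141, 166, 411, 339.9 and 39.6 in stem Leydig, bone stem, progenitor, immature and adult arrays. With stem Leydig arrays alone the counts were 8 higher and 12 lower. Ccnd1, cyclin D1, stood out, with 578, 1257, 1048, 1279 and 1257 on stem Leydig arrays and 1444, 1457 and 1516 on bone stem arrays. Later arrays gave Ccnd1 34.8 at the lowest, 45.9 at the median and 188 at the highest (3.91 ± 0.14, adjusted p = 2.32e-15). The replication licensing gene Mcm7 fell (-1.06). Mcm3, of the same complex, was called lower (-1.03), but neither stem Leydig (-0.15, adjusted p = 0.593) nor bone stem arrays (-0.17, adjusted p = 0.613) were called different from adult arrays.

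Inhibitors of the cell cycle and targets of p53 were called higher for 14 of 24 and lower for 6 (median 0.72). Cdkn2a, which encodes p16 and ARF, had 786, 480.4, 569.5, 484 and 763 on stem Leydig arrays and 397, 566 and 519.7 on bone stem arrays. On later arrays Cdkn2a had 1.19 at the lowest, 6.02 at the median and 13 at the highest, all near the floor (4.70 ± 0.12, adjusted p = 2.18e-17). Cdkn1a, which encodes p21, rose by 3.28 ± 0.12, Cdkn2b by 2.83 and Mdm2, which degrades p53, by 1.25. Sesn1, a stress-response gene that p53 induces, fell by 1.78.

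Energy genes divided by pathway. Glycolysis and hypoxia genes were called higher for 20 of 28 and lower for 4 (median 0.65). Slc16a3, a lactate exporter, had 602 to 1157 on stem arrays and 7.22 to 26.2 on later arrays (4.96 ± 0.12), and the glucose transporter Slc2a3 (3.06), enolase 2 (Eno2, 3.72) and Ldha (1.05) rose. Ldhb, the other lactate dehydrogenase subunit, fell (-2.17 ± 0.11). Fatty acid oxidation and peroxisome genes were called lower for 30 of 36 and higher for 1 (median -1.16), and stem and later arrays did not overlap for 20 of them. Acaa2, a mitochondrial thiolase, had 300.3, 268, 338, 242 and 266 on stem Leydig and 430.1, 302 and 334 on bone stem arrays. Later arrays had 1934 at the lowest, 2800.0 at the median and 4614 at the highest (-3.10 ± 0.10, adjusted p = 6.45e-16). Etfdh, which passes electrons from this pathway to ubiquinone (-2.26), and Cpt1a, which admits fatty acids to mitochondria (-2.07), fell as well.

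Glutathione, antioxidant and detoxification genes gave 11 of 41 higher and 21 lower (median -0.39). Aldh1a1, a retinaldehyde dehydrogenase, fell by 5.56 on the log2 scale, though bone stem replicate 1 had a signal of 219.7 where the other 2 bone stem arrays had 5.3 and 9.0. The glutathione transferase genes Gstm2 (-3.91 ± 0.20) and Gstm1 (-3.77), close paralogs whose probes may not tell them apart, and the epoxide hydrolase Ephx1 (-3.08) were lower. Gpx3, an extracellular glutathione peroxidase (5.38 ± 0.14), and Nqo1, a quinone reductase (3.29 ± 0.12), were higher with no overlap of arrays. Folding and secretory pathway genes gave 17 of 36 higher and 2 lower, with a median of 0.17. Kdelr3, a retrieval receptor (2.43), and Rcn3, a calcium-binding protein of the endoplasmic reticulum (2.22), led it, and Xbp1, a factor of the unfolded protein response, fell by 0.56.

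Steroid synthesis genes were lower in the stem groups for 16 of 22 members and higher for 0, with a median of -1.29. Cyp11a1, which cuts the side chain of cholesterol, had 10.4, 19.1, 12.9, 18.4 and 17.7 on stem Leydig arrays and 21, 13.8 and 11.5 on bone stem arrays. Later arrays had 1758 at the lowest, 2506 at the median and 5525 at the highest (-6.48 ± 0.11, adjusted p = 3.28e-20). Hsd3b1, which makes progesterone from pregnenolone, had 5.6, 13.1, 20.6, 7 and 14.7 on stem Leydig and 87.5, 22.3 and 21.2 on bone stem arrays, well under the lowest later array at 2182 (-6.61 ± 0.20). Hsd17b3, which makes testosterone from androstenedione, was dim in progenitor arrays too, with means of 14.1, 10.1, 52.5, 366 and 633 in stem Leydig, bone stem, progenitor, immature and adult arrays (-3.17 ± 0.14). Star, which carries cholesterol into mitochondria, differed from the other steps: it had 243, 1446, 391, 657 and 961 on stem Leydig and 442, 15.9 and 15.9 on bone stem arrays. Later arrays had 580.1 at the lowest, 1552 at the median and 3952 at the highest, so 3 stem Leydig arrays reached into the progenitor range (-2.90 ± 0.41, adjusted p = 5.08e-06). Bone stem replicate 1 was above the other 2 bone stem arrays for Star, Hsd3b1 and Cyp17a1, though its Cyp17a1 signal of 10.7 was under 16. Of other genes lower in the stem groups, replicates 1, 2 and 3 had 121.7, 21.9 and 26.1 for Igfbp2 and 100.6, 21.3 and 29.6 for Timp3. For Etfdh they had 141.8, 146.1 and 171.7. These genes were picked after their values were seen, and the reason for the higher signals of replicate 1 was not tested. The 6 members not called were Tspo, Cyb5a, Hsd17b1, Cyp19a1, Sult1e1 and Hsd3b5.

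Hormone receptors and regulators of Leydig cells were called lower for 21 of 27 and higher for 2 (median -0.94). Lhcgr, the luteinizing hormone receptor, had 11.7, 9.3, 14.4, 15.4 and 9.2 on stem Leydig and 15.9, 12.6 and 12.3 on bone stem arrays. Later arrays had 1581 at the lowest, 2279.7 at the median and 2518 at the highest, with no overlap (-6.20 ± 0.09, adjusted p = 8.52e-21). Nr5a1, the steroidogenic factor SF-1, was graded, with 70.5, 75.1, 96.3, 73.6 and 71.4 on stem Leydig arrays and 9.8, 10.2 and 4.6 on bone stem arrays, and a lowest later array of 648 (-4.18 ± 0.08). Gata4, a gonadal factor, was likewise brighter in stem Leydig than in bone stem arrays, with means of 233 ± 28.3 in stem Leydig, 21.6 ± 20.2 in bone stem and 749.6 ± 44.3, 708 ± 81.7 and 559.5 ± 62.2 in progenitor, immature and adult arrays. The prolactin receptor Prlr (-5.06) and the orphan receptor Nr0b1 (-4.13) fell, and Pde4b, a cyclic AMP phosphodiesterase, rose (1.90).

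Cholesterol genes fell by less, with 19 of 26 called lower, 2 higher and a median of -0.65. The lipoprotein receptor Scarb1 had 110.0 to 144 on stem arrays and 1526 to 3499 on later arrays (-3.83 ± 0.10). Dhcr7, the last step of cholesterol synthesis by the Kandutsch-Russell route, fell by 3.25 and the exporter Abca1 by 3.24. Sqle and Msmo1, enzymes of the synthesis pathway, were called lower but lay on no shared side. Sqle averaged 748, 292, 732, 439 and 515 and Msmo1 1612, 567, 1388, 1139.9 and 1310.1 in stem Leydig, bone stem, progenitor, immature and adult arrays.

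**Figure D3:**
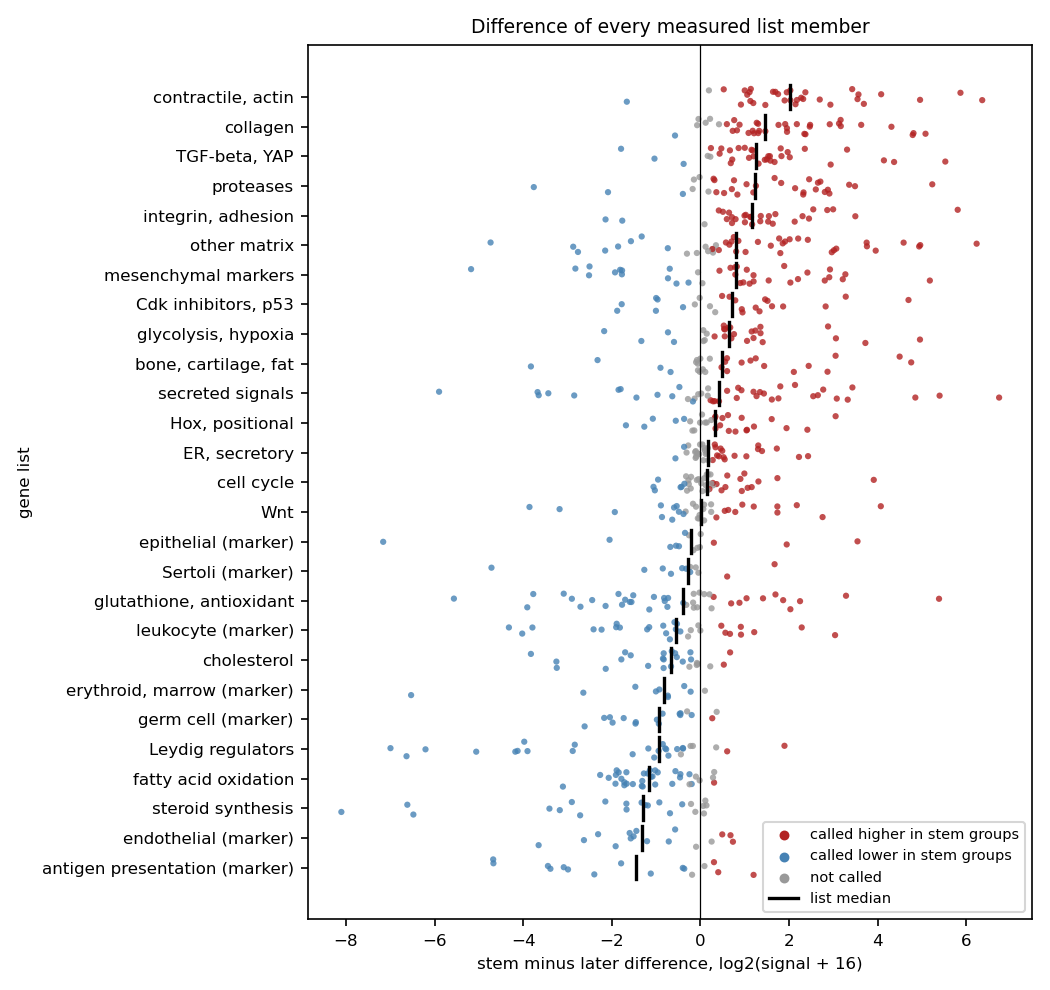
Stem minus later difference on the log2(signal + 16) scale for every measured member of the 27 gene lists, with 1 point per gene, red where called higher, blue where called lower and grey where not called, and a black bar at each list's median. Contractile genes have the highest median (2.03) and antigen presentation genes the lowest (-1.45).

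The stem groups were compared with each other within the same model. Of all genes, 9.76% were higher and 14.1% lower in stem Leydig than in bone stem arrays. Among the 2952 shared higher genes those shares were 10.7% and 18.6%, and among the 3786 shared lower genes 8.1% and 7.5%. The rule uses both stem means, so the shares among chosen genes only describe them. A shared side could still hold unlike levels in the stem groups, as for some bone and cartilage genes. Acan, the cartilage proteoglycan aggrecan, had 12.4, 11.8, 43.2, 15.7 and 17 on stem Leydig arrays and 899, 959.7 and 940.3 on bone stem arrays, a difference of -4.78 ± 0.22 (adjusted p = 3.22e-12). Later arrays gave Acan 10.9 at the lowest, 16.7 at the median and 29.8 at the highest, so 4 of the 5 stem Leydig arrays lay within the later range and replicate 3 above it. Spp1, osteopontin, was bright in both stem groups, with 2408, 1748, 1627, 1513 and 2076 on stem Leydig and 3794, 4209 and 3912 on bone stem arrays, and reached 536 on an adult array (4.76 ± 0.19). Of the 27 bone, cartilage and fat genes, 14 were called higher and 4 lower (median 0.48), but 7 and 6 with stem Leydig arrays alone. Ibsp and Alpl, of bone, and Fabp4, of fat cells and macrophages, averaged 0.75 ± 0.28, 1.17 ± 0.34 and 4.7 ± 2.45 in stem Leydig arrays, against 155 ± 41.1, 149 ± 63.9 and 420.3 ± 353 in bone stem arrays, and none of these lay on a shared side.

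Positional, epithelial and leukocyte genes also had unlike levels in the stem groups. Hoxa10 had 25.1, 33.2, 34.9, 59.8 and 49.8 on stem Leydig and 506, 658 and 619.8 on bone stem arrays, with later arrays at 1.57 to 16.5. Sncg, gamma-synuclein, averaged 52.7 ± 18.6 in stem Leydig and 1522 ± 79.1 in bone stem arrays (-4.53 ± 0.30, adjusted p = 7.92e-10). Later arrays had 9.31 to 75.5 for Sncg, and the lowest stem Leydig array had 30.7. Krt18, an epithelial keratin, was higher in stem Leydig arrays, with 240.2 ± 139 in stem Leydig and 13.4 ± 1.89 in bone stem arrays (2.93 ± 0.33, adjusted p = 1.26e-06). Against progenitor, immature and adult arrays, bone stem Krt18 was not called (adjusted p = 0.39, 0.268 and 0.243). Its partner keratin Krt8 averaged 94.4, 24.6, 49.2, 46.3 and 83.8 in stem Leydig, bone stem, progenitor, immature and adult arrays, and was not called. Cd14, a co-receptor of monocytes, had 157, 154, 174, 131 and 153 on stem Leydig and 2046, 1491 and 1441 on bone stem arrays, against 32.1 to 93.6 on later arrays. Col4a5, a basement membrane collagen, was the reverse among lower genes, at 779 ± 222 in stem Leydig and 59.5 ± 27.2 in bone stem arrays (3.41 ± 0.23). Stem Leydig minus adult was not called for Col4a5 (-0.19, adjusted p = 0.501).

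**Figure D4:**
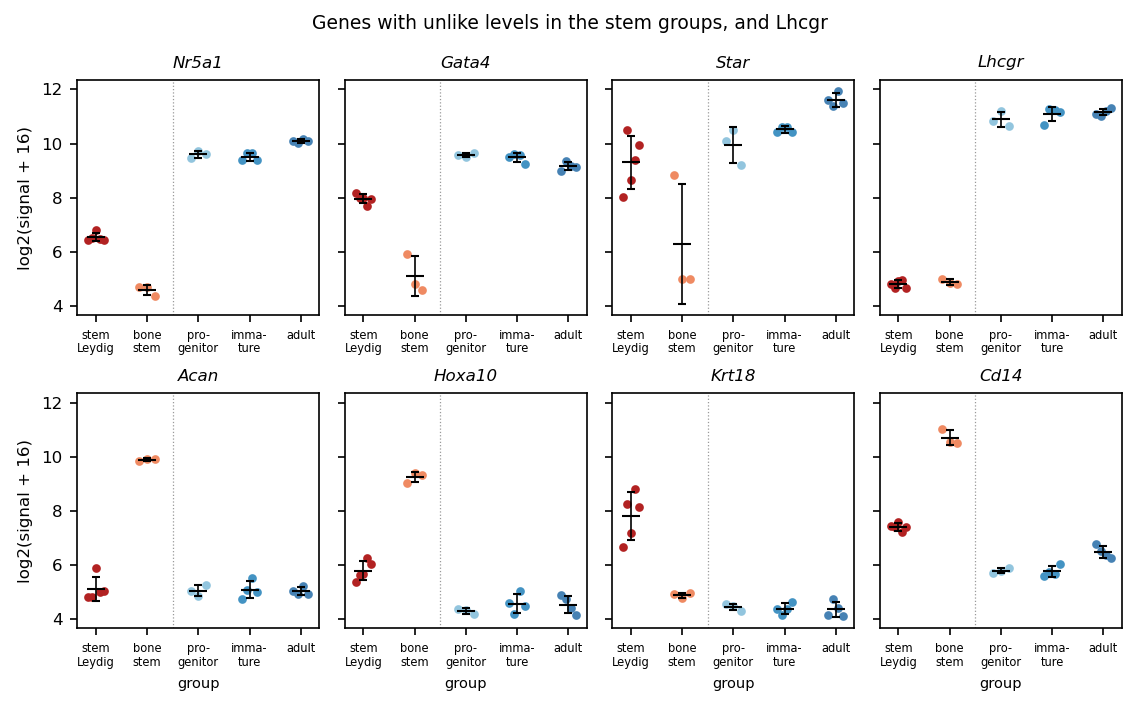
Signals of 8 genes as log2(signal + 16), with 1 point per array, the group mean as a bar and the SD as whiskers (n = 5, 3, 3, 4 and 4). Nr5a1, Gata4, Star and Krt18 are higher in stem Leydig than in bone stem arrays, Acan, Hoxa10 and Cd14 are higher in bone stem arrays, and Lhcgr is at the floor in both.

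Among the later groups, 13.9% of all genes were higher and 19.6% lower in adult than in progenitor arrays. Of the shared higher genes, 5.4% were higher and 26.2% lower in adult arrays, and of the shared lower genes, 23.6% were higher and 12.5% lower. The rule uses the adult and progenitor means, so these shares are a description. The later group nearest to the stem side was progenitor for 1479, immature for 750 and adult for 723 of the shared higher genes, and progenitor for 1575, immature for 831 and adult for 1380 of the shared lower genes. Mmp2 is an example of a graded higher gene, with means of 1729, 2883, 341, 339 and 48 in stem Leydig, bone stem, progenitor, immature and adult arrays. Ccnd1 and Spp1 were brightest among the later groups in adult arrays instead. Just inside the rule, among called genes that differed by at least 1, lay Etv4, Clec7a and Adgre1, whose nearest stem and later means were 0.0013, 0.0031 and 0.0034 apart. Just outside lay Cpxm1, Dbil5 and Asic3, at 0, -0.0034 and -0.0052.

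Markers of other cell types moved with the sides and between the stem groups. Leukocyte markers gave 8 of 29 higher and 17 lower (median -0.55), but 1 and 25 with stem Leydig arrays alone. Of the 8 higher and 17 lower, 1 and 9 lay on a shared side. The macrophage genes Cd68, Tyrobp and Lyz2 averaged 29.7 ± 10.8, 18.1 ± 4.48 and 539 ± 178 in stem Leydig arrays, against 2094 ± 233, 1992 ± 281 and 3717 ± 429 in bone stem arrays. T and NK cell genes were lower in both stem groups, with Cd7 at 11.8 to 22.8 on stem arrays and 44.1 to 2701 on later arrays (-4.32 ± 0.19), and Gzma (-3.79) and Nkg7 (-4.02) alongside. Among the later groups Gzma averaged 1079.9 ± 98.7, 599.7 ± 379 and 27.9 ± 9.01 in progenitor, immature and adult arrays. The part of these cells in the lower genes was not tested.

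Antigen presentation genes were lower for 11 of 16 and higher for 3 (median -1.45), with 9 of the lower and 0 of the higher on a shared side. Cd74, the class II invariant chain, averaged 13 ± 2.56 in stem Leydig and 33.1 ± 40 in bone stem arrays. In progenitor, immature and adult arrays it averaged 836 ± 294, 846 ± 318 and 1014 ± 361 (-4.68 ± 0.23). Erythroid and marrow genes were lower for 9 of 10, with a summed signal of 50 to 109 on stem and 332 to 5536 on later arrays, which on later arrays was mostly Hbb, a beta-globin (-6.53 ± 0.18). Endothelial markers were lower for 11 of 16 and higher for 3 (median -1.33), with 10 of the lower and 0 of the higher on a shared side. The tight junction gene Cldn5 was the lowest (-3.65 ± 0.32). Summed endothelial signal was 629 to 1265 on stem and 656 to 3996 on later arrays. Stem Leydig sums of 1064 to 1265 lay within the immature range of 656 to 1462. Germ cell markers were lower for 14 of 17, 6 of them on a shared side, with sums of 394 to 572 on stem and 551 to 4891 on later arrays. The sums were highest in adult arrays, where the sperm gene Smcp averaged 604 ± 444. Against progenitor arrays, Smcp was called neither in stem Leydig (adjusted p = 0.398) nor in bone stem arrays (adjusted p = 0.596). Sertoli markers gave 2 of 12 higher and 7 lower, and their sums overlapped, at 2659 to 4236 on stem and 2150 to 3217 on later arrays. Epithelial and seminal vesicle markers gave 3 of 14 higher and 6 lower, with sums of 265 to 1197 on stem and 2524 to 4210 on later arrays, the later sums being mostly Svs5. What these cells contribute to the lower genes was not tested. Without the bone stem arrays the contractile, collagen and TGF-beta lists had 30, 31 and 29 members called higher, of 33, 37 and 34 measured. With both stem groups 31, 31 and 29 were called higher. These counts do not bear on other cells in the stem Leydig or later samples.

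**Figure D5:**
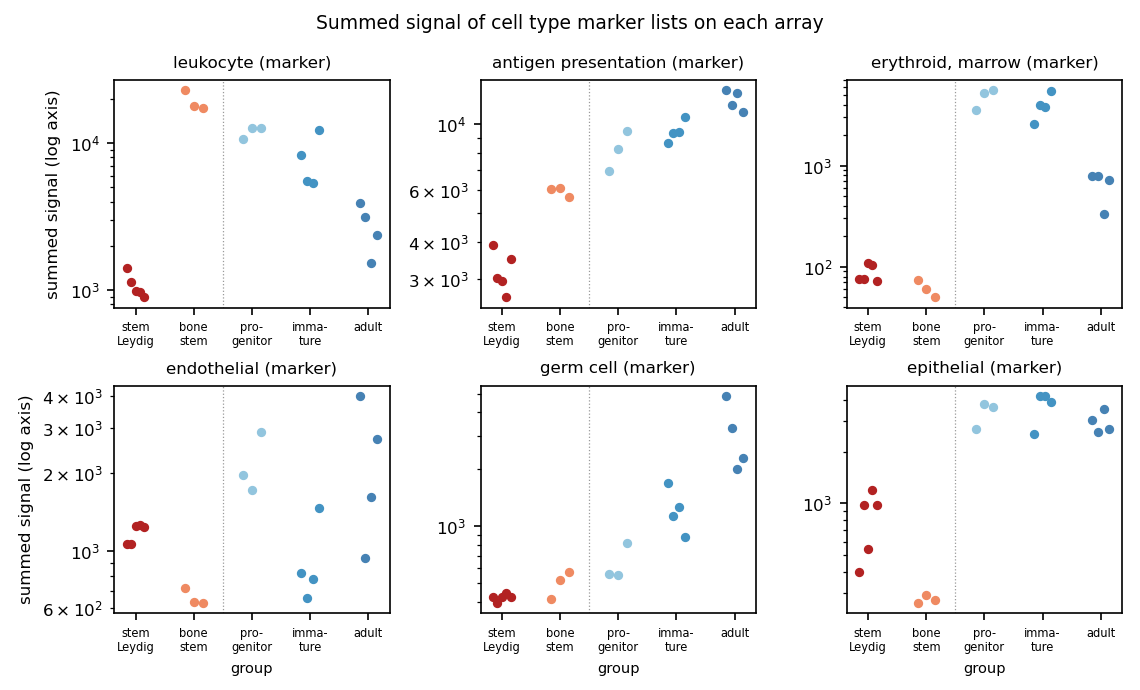
Summed signal (log axis) of the measured members of 6 marker lists on each of the 19 arrays, by group. Leukocyte sums are 892 to 1416 on stem Leydig and 17514 to 22927 on bone stem arrays, and erythroid sums are 50 to 109 on stem arrays, against 332 to 5536 on later arrays.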

How the data were processed

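RNA of 19 rat samples was measured on Affymetrix arrays. The deposited table gives 1 intensity per probe set and array on a linear scale, made with MAS5 and GCOS per the submitters' processing notes, where versions are not stated. The authors' values had already been scaled, each array having a 2% trimmed mean of 100. From these, log2(signal + 16) was computed, so dim genes have understated differences. Control probe sets were left out, which left 31042. The platform annotation gave 1 symbol to 20826 of them, several to 436 and none to 9780, and 20758 were found by gene ID in RefSeq's table. Each of 14217 genes is represented by its probe set with the highest mean.

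The 5 group means were fitted in limma 3.58.1 (R 4.3.3, moderated statistics with an intensity trend), with p-values two-sided and adjusted by Benjamini-Hochberg over all probe sets. Each group had equal weight within its side. The fit was tested on simulated data. Figures were drawn with matplotlib 3.10.9 in Python 3.11.15. The labels name no animals or cultures behind the replicates, so the p-values may reflect technical spread only, and the number of arrays limits the precision. Over the brightest 20% of probe sets, bone stem replicates 2 and 3 were the closest pair (median absolute log2 difference 0.067). Immature replicates 2 and 3 came next (0.092), while bone stem replicate 1 was 0.207 and 0.200 from the other bone stem arrays. With each of the closest pairs averaged, 14869 probe sets were called, against 16416.

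Named genes are the 8 largest differences each way among called genes on a shared side without overlap of arrays and with the brighter side at or above the median probe set. Up to 2 called members each way came from each of 20 pathway lists and 1 each way from each of 7 marker lists, all on a shared side. A set of Leydig and mesenchymal markers was named whatever the result, with the 3 shared genes each way that differed most between the stem groups. Other list members given with values were chosen after their values were seen. The lists hold 860 symbols, 762 of them measured. Members and lists were chosen with earlier results of these data known. Promoter sequences are RefSeq's (GRCr8), the first listed start of each gene.

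Replicate numbers did not pair the arrays. The alternatives were quantile normalization, median centring, a pseudocount of 1 or 64, a filter on the lowest 40% of probe sets, and no trend. Others were array weights, equal weight per array, an average over a gene's probe sets and a replicate block. The closest pairs averaged, stricter calls and arrays left out were also used.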

Additional observations from a re-analysis of the deposited data

Results flagged for a closer look

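In groups of 4 or 5 arrays, 1 array stood apart from the others of its group (by Dixon's criterion) in 26 of 312 groups of named genes, where chance gives about 1 in 20. Dim groups were included in this count, among them Aqp1 on adult arrays, where every signal was under 16. Stem Leydig replicate 3 stood apart for 7 genes. Its signal was high for Acan (43.2), Cldn5 (28.5), Nr5a1 (96.3) and Aldh1a1 (49.1), and low for Col11a1 (152.8), Tgfbr3 (18.6) and Pdgfra (448.0). Stem Leydig replicate 1 was low for Slc16a3 (602.2), Ccnd1 (578.4) and Nes (146.6).

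Immature replicate 4 stood apart for 6 genes, low for Spp1 (15.1), Hsd17b3 (218.4) and Angptl4 (747.6), and high for Kdelr3 (342.5), Pbx3 (153.8) and Gli1 (346.2). Immature replicate 1 was low for Ccnd2 (18.6), Acaa2 (2155.2), Cyp11a1 (1758.2) and Insl3 (1601.8). In the adult group, replicate 1 was high for Ccnd2 (43.2) and Col4a5 (968.3), replicate 2 was high for Aqp1 (12.8) and low for Cdkn2c (137.8), and replicate 3 was high for Pdgfra (2149.9) and low for Hbb (246.9).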

How the results depend on the processing

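With all arrays, 16416 probe sets were called, 6433 higher and 9983 lower in the stem groups, 12811 of them on a shared side, and the rule alone placed 15885 there, 5606 higher and 10279 lower. Median centring changed the balance of directions, to 11454 higher and 6063 lower, with 10881 and 5267 by the rule alone. Without the lowest 40% of probe sets the rule placed 10577, of which 6159 were lower. Requiring all 6 pairwise differences left 4697 calls, 2176 higher and 2521 lower, all on a shared side, and a 2-fold minimum left 4370, 2005 higher and 2365 lower, with 4042 on a shared side. Leaving out 1 array gave 15022 to 16813 calls, 6036 to 6545 higher and 8924 to 10442 lower, with 12019 to 13037 on a shared side. The rule alone then gave 15212 to 16099, 5403 to 5889 higher and 9594 to 10510 lower. Calls between stem Leydig and bone stem arrays ranged from 3746 to 6320, against 5749, with 3752 without bone stem replicate 2 and 3746 without replicate 3. Calls between adult and progenitor arrays ranged from 6499 to 8013, against 7577, and called list members from 601 to 622, against 621.

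A replicate block gave 6202 higher and 9446 lower calls with 12365 on a shared side, and same-numbered arrays of different groups had deviations with a median correlation of 0.004 over 33 pairs, 5 of them over 0.1, so the numbers were not taken as pairs. Of 104 named genes, 86 kept their direction and call in all 35 settings. Against the later arrays, bone stem arrays alone gave -0.10 for Nes and -0.13 for Eng (both positive with both stem groups), 0.52 for Ptprc and a median of 0.88 for the leukocyte list (both negative with both). Acan (0.05) and Arl11 (0.22) were not called with stem Leydig arrays alone, nor Krt18 (0.48) with bone stem arrays alone. With only the printed strand searched, a TEAD motif was found in 11.1% of contractile promoters, 23.1% of steroid promoters and 7.4% of all promoters, and AAGGTCA in 0.0% of the steroid list, 1.0% of higher and 2.0% of lower genes that differ by a log2 of 2 or more, against 2.1% of all promoters. Averaged over a gene's probe sets, differences shrank by more than 1.5 times for Il1rl1 (3.31), Col11a1 (3.19), Inhba (2.87), Dkk3 (1.06), Mmp2 (1.81), Pdgfrb (1.71), Pde4b (1.22), Itga9 (-1.16) and Wnt6 (-2.35), among the genes given with values. Among the named genes, Acan, Arl11, Krt18, Ccnd2, Nes, Eng, Lipa, Slc16a1 and Cdkn2c were not called when all 6 pairwise differences were required. Nor were Mcm3, Tgfbr3, Ptprc, Cavin2, Smcp, Col4a5, Gli1 and Star. Signals under 16 are close to the floor and have no reliable order.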
